A study of Rattus norvegicus with 4 samples.

Results

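Olig2 sites that were called in both vehicle and lysolecithin (LPC) cultures, and that lay on H3K27Ac peaks in both conditions, numbered 1772 of the 4965 vehicle Olig2 peaks (35.7%, 95% interval 34.4 to 37.0). They were chosen by overlap alone: a vehicle Olig2 peak had to share at least 1 bp with an Olig2 peak of the LPC list and with H3K27Ac peaks of each condition. They are called kept acetylated sites here. The other vehicle Olig2 peaks were 956 lost acetylated sites (on H3K27Ac peaks of both conditions, no LPC Olig2 peak), 1106 kept and 653 lost sites without H3K27Ac in either condition, and 302 kept and 176 lost sites with H3K27Ac in 1 condition. Seen from the LPC Olig2 list, 1773 of its 3229 peaks (54.9%, 53.2 to 56.6) overlapped a kept acetylated site.

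Olig2 is a basic helix-loop-helix transcription factor that binds E-box sequences and is needed to specify the oligodendrocyte lineage and for myelin formation. H3K27Ac, acetylation of lysine 27 of histone H3, marks nucleosomes beside active promoters and enhancers, and its level falls at the bound stretch itself where nucleosomes are displaced. LPC is a membrane-active lipid that is injected into white matter to strip myelin, and oligodendrocytes exposed to it in culture are used as a model of that injury.

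The series holds 4 ChIP-seq libraries from rat brain oligodendrocyte cultures, 1 for each pairing of an antibody (H3K27Ac from Abcam or Olig2 from Millipore) with a condition (vehicle, or LPC for 6 h at a concentration that the labels give as 12.5 mM, a unit that could not be checked). All cultures, vehicle included, began as mixed glia grown for 5 to 7 days in medium with 15% serum. They then had 2 days in B104-conditioned medium before precursors were shaken off, expanded in PDGF-AA at 10 ng/ml and bFGF at 20 ng/ml, and differentiated in medium with 10 ng/ml of the cytokine CNTF and 15 nM of the thyroid hormone T3. The sources used here do not state the strain, the age of the animals or their number per culture, and the labelled cell type could not be checked against marker genes. The peak lists had 38902 (vehicle) and 38721 (LPC) H3K27Ac peaks and 4965 and 3229 Olig2 peaks, as chromosome, start and end on the rat build rn4, without scores or read depth. Each antibody and condition had a single library, so no p-value was computed. Intervals are 95% intervals for counting error over peaks, and a difference between conditions cannot be told apart from a difference between 2 libraries in depth, enrichment or calling. Peaks were not assigned to genes, and sequence of the rn4 build was not used here.

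The limit of 1 bp mattered little for the Olig2 overlap and more for the H3K27Ac overlaps. The LPC Olig2 peak covered a median of 90.8% of the vehicle peak (quartiles 82.9 and 96.7%), and at least 50% of it at 1745 of the 1772 sites. The smallest overlap was 5 bp, at chr11:58693469-58695085, or 0.31% of that peak. The next smallest in bp were 510 bp at chr12:28864616-28865146 (96.0% of a short peak) and 513 bp at chr16:32564478-32565399 (55.6%). Just outside, the nearest lost acetylated sites lay 43 bp (chr2:120738016-120739861), 129 bp (chr4:49195850-49196841) and 169 bp (chr5:123339846-123341290) from an LPC Olig2 peak. For vehicle H3K27Ac the smallest cover was 64 bp, at chr3:159100644-159101461, and for LPC H3K27Ac it was 25 bp, at chr1:143025090-143025685. The nearest kept sites that failed on 1 of these marks lay 47 bp from a vehicle H3K27Ac peak (chr5:31332908-31333459) and 5 bp from an LPC one (chr11:51443527-51444561). H3K27Ac peaks covered at least 50% of the Olig2 peak at 1574 of the 1772 sites in vehicle and at 1641 in LPC, and with 50% required in each condition 1518 sites (30.6% of vehicle Olig2 peaks) were left.

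Both marks used by the rule were common in the vehicle Olig2 list as a whole. Of all 4965 vehicle Olig2 peaks, 64.0% overlapped an LPC Olig2 peak and 54.9% lay on H3K27Ac of both conditions. Among the 2728 sites on H3K27Ac of both conditions, 1772 (65.0%, 63.1 to 66.7) were kept. Among the 1759 sites without H3K27Ac, 1106 (62.9%, 60.6 to 65.1) were kept, and the difference was 2.08 percentage points (-0.79 to 4.97). Since these shares restate the rule, they are a description. The sign of the difference depended on how peak length was treated. Within 3 classes of vehicle Olig2 length with tied lengths kept together, from short to long, sites on H3K27Ac of both conditions were kept in 56.9%, 66.2% and 71.8%, and sites without H3K27Ac in 60.2%, 70.9% and 73.0%. The differences were -3.31 (-7.47 to 0.85), -4.71 (-10.3 to 1.26) and -1.23 points (-9.52 to 8.62), and each interval included 0. With every list limited to peaks at or above its median length, the difference was instead 13.5 points (9.06 to 17.9), a limit that also shortens the LPC list against which a site counts as kept.

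Kept acetylated sites had the longest Olig2 peaks of all the classes by their median. Their median vehicle length was 1258 bp (quartiles 1032 and 1530 bp, range 531 to 4070 bp). Lost acetylated sites had a median of 1134 bp (interval of the median 1101 to 1158 bp, against 1231 to 1277 bp for kept ones). Kept sites without H3K27Ac had a median of 937 bp (923 to 953 bp), and lost ones 858 bp (836 to 876 bp). Going from the shortest to the longest 20% of the vehicle Olig2 list, the share that were kept acetylated sites was 12.3%, 21.5%, 34.6%, 48.2% and 61.8%. Longer Olig2 peaks have more bases with which to touch another peak, and the part of this in the trend was not tested.

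At nearly all kept acetylated sites a single vehicle Olig2 peak faced a single LPC peak, and the LPC peak was usually slightly shorter and almost in the same place. Of the 1772 sites, 1765 had such a 1-to-1 partner, 3 overlapped more than 1 LPC peak and 4 shared an LPC peak with another vehicle peak. The vehicle peaks of the 1-to-1 pairs had a median length of 1255 bp and the LPC peaks one of 1137 bp. The median of the LPC over vehicle ratio was 0.94 (interval 0.93 to 0.94, quartiles 0.84 and 1.02). The LPC peak was the longer one at 524 sites (29.7%, 27.6 to 31.9), which equals the 29.7% found over all 3171 1-to-1 Olig2 pairs of the series. It was at least 1.5 times as long at 19 sites and at most 0.67 times as long at 123. At 769 sites (43.6%) the LPC peak lay entirely inside the vehicle peak, at 197 (11.2%) it reached past both ends, and at 799 (45.3%) past 1 end. Peak lengths in the 2 lists ran together across sites, with Pearson's r of 0.73 and Spearman's rho of 0.74 over 1765 pairs, a description in which every point comes from the same 2 libraries.

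**Figure D1:**
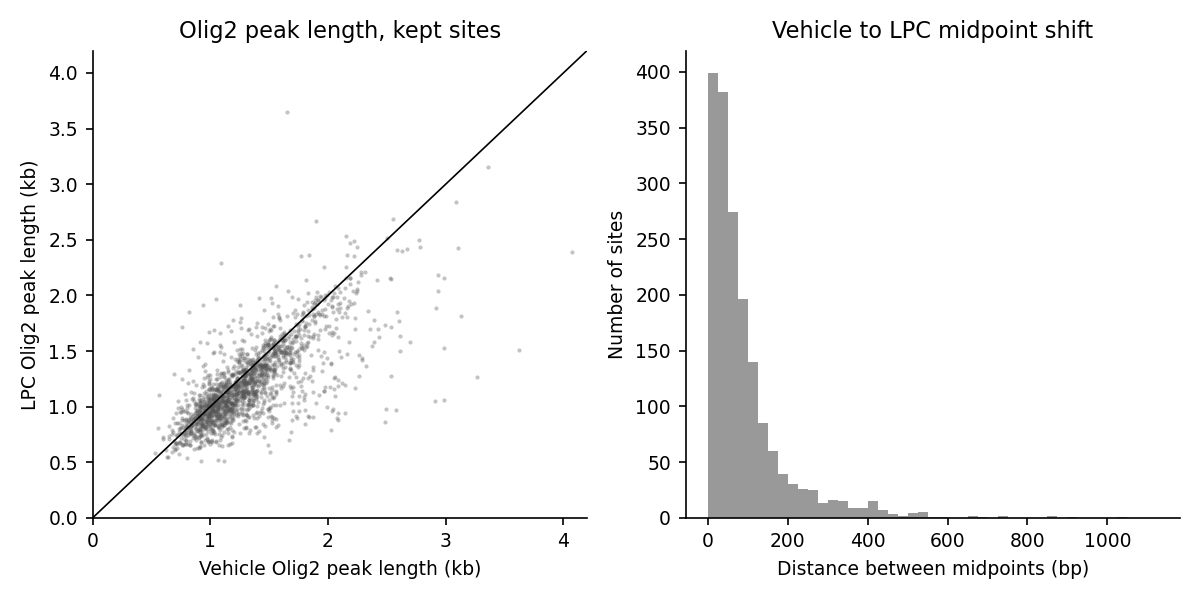
The left panel plots the LPC against the vehicle Olig2 peak length in kb for each of the 1765 kept acetylated sites with a 1-to-1 partner, with the line of equality; the right panel counts the same sites by the distance in bp between the vehicle and LPC midpoints. Most points lie just below the line (524 lie above it), and the shifts pile up near 0 with a median of 57 bp and a tail to 1041 bp.

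The midpoints of the vehicle and LPC Olig2 peaks lay a median of 57 bp apart (interval 54 to 61 bp, quartiles 27.5 and 109 bp). At 1255 sites (71.1%, 68.9 to 73.2) the shift was at most 100 bp, against 74.9% over all 1-to-1 pairs of the series and 80.4% at kept sites without H3K27Ac. The difference from the latter was -9.33 points (-12.4 to -6.13). Shifts above 250 bp occurred at 133 kept acetylated sites (7.54%) and at 19 kept sites without H3K27Ac (1.72%). As a share of the vehicle peak length, however, the median shift was 4.69% (4.39 to 5.06) at kept acetylated sites and 5.29% (4.87 to 5.72) at kept sites without H3K27Ac. Length-matched differences in the share of shifts above 100 bp varied with the length used for matching. When pairs were split into 3 equal classes by the mean of their vehicle and LPC lengths, shifts above 100 bp were more frequent at kept acetylated sites in the shortest class alone, by 5.10 points (0.27 to 10.4). In the middle and longest classes the differences were -3.40 (-9.27 to 2.26) and 0.057 points (-10.1 to 9.33). Sorted by vehicle length, the differences from short to long were 7.03 (1.92 to 12.5), 0.67 (-4.87 to 5.92) and -4.46 points (-13.9 to 4.50). Sorted by LPC length, they were 10.1 (4.60 to 15.9), 4.10 (-1.53 to 9.46) and 1.02 points (-8.57 to 9.50). In all 3 sorts the interval lay above 0 in the shortest class and included 0 in the others.

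Whether Olig2 peaks shrank less at acetylated sites than at non-acetylated ones depended on which list was used to match their lengths. Split into 3 equal classes by vehicle length, kept acetylated sites had a longer LPC peak more often than kept sites without H3K27Ac in every class, by 11.1 (4.37 to 17.7), 15.1 (9.45 to 20.3) and 9.19 points (2.04 to 14.3). Split by LPC length, the differences had the opposite sign, at -7.48 (-12.4 to -2.15), -11.8 (-18.0 to -5.66) and -5.50 points (-15.3 to 3.88). Split by the mean of both lengths, they were -2.19 (-8.35 to 4.27), 4.64 (-1.44 to 10.5) and 8.31 points (-0.90 to 15.6). Without any split, the share was 29.7% in both classes, a difference of -0.022 points (-3.48 to 3.38).

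**Figure D2:**
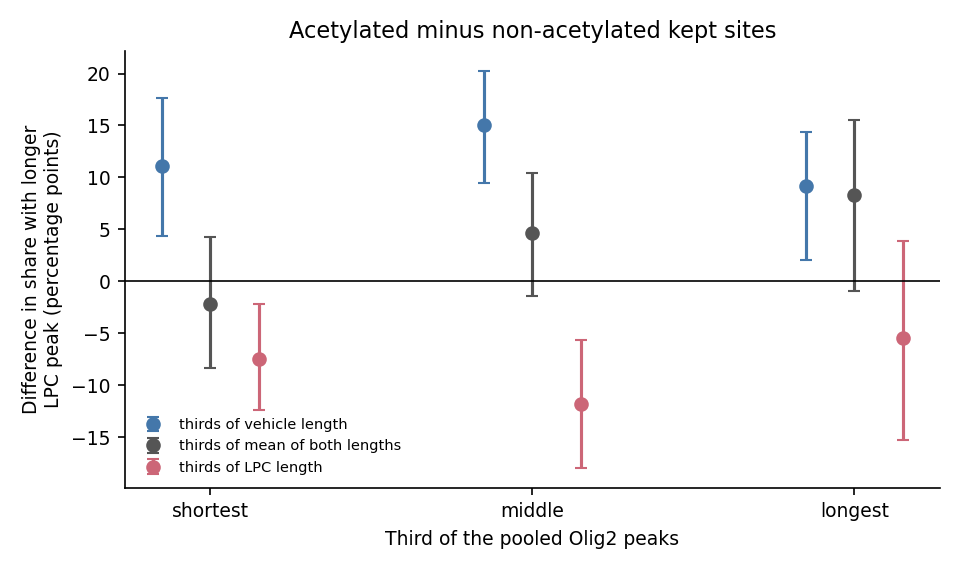
For each class of Olig2 peak length (x axis, shortest to longest of 3 equal classes of the pooled 1-to-1 pairs), points give the share of kept acetylated sites with a longer LPC peak minus that of kept sites without H3K27Ac, in percentage points with 95% Newcombe intervals, for 3 ways of measuring the length that sorts the pairs. The vehicle-sorted differences lie above 0 (9.19 to 15.1), the LPC-sorted ones below 0 (-11.8 to -5.50), and the intervals of those sorted by the mean span 0.

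The longest kept acetylated site was chr5:22750285-22754354, an Olig2 peak that measured 4070 bp in the vehicle list and 2388 bp after LPC. LPC H3K27Ac peaks covered all 2000 bp of the window within 1 kb of its midpoint, and vehicle H3K27Ac peaks covered 1984 bp. The second, chr13:49500518-49504143, fell from 3626 to 1506 bp, and its window was full in vehicle and covered over 1942 bp in LPC. The third, chr20:41309620-41312977, stayed close to its length, at 3358 and 3159 bp, with a midpoint shift of 31.5 bp and a fully covered window in both lists. The fourth, chr18:49957480-49960743, fell from 3264 to 1262 bp, and the fifth, chr15:21465833-21468960, was 3128 and 1814 bp. The other five of the longest 10 were chr17:53556729-53559830 (3102 and 2422 bp), chr11:31276681-31279771 (3091 and 2839 bp), chr18:50407517-50410500 (2984 and 1525 bp), chr1:169917946-169920927 (2982 and 1056 bp) and chr2:120955666-120958647 (2982 and 2160 bp). All 10 were shorter in LPC, which sorting by vehicle length favours. H3K27Ac peaks covered at least 1907 bp of the window in LPC at each of these 10 sites. In vehicle they covered 1447 bp at the chromosome 1 site, 1754 bp at the chromosome 17 site and at least 1973 bp at the others.

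Among sites with a 1-to-1 partner, the largest relative gain of Olig2 length was at chr9:42904129-42904884, from 756 to 1714 bp, where H3K27Ac cover of the 2 kb window also rose from 447 to 932 bp. At chr2:121636742-121637559 the Olig2 peak went from 818 to 1854 bp and H3K27Ac cover from 1396 to 1920 bp. The other three of the 5 largest gains were at sites already well covered in vehicle. There chr3:156959704-156961358 went from 1655 to 3647 bp, chr19:55593974-55595061 from 1088 to 2287 bp, and chr7:123646883-123647821 from 939 to 1914 bp. The largest relative falls were at chr1:211626807-211629290 (2484 to 861 bp), the site on chromosome 1 named above (2982 to 1056 bp), chr13:93341948-93344860 (2913 to 1051 bp), chr5:142958570-142961151 (2582 to 969 bp) and the chr18:49957480-49960743 site. Of these 5, the window held more LPC than vehicle H3K27Ac at both chromosome 1 sites and the chromosome 13 site, was full in both lists at the chromosome 5 site, and held less at the chromosome 18 site (1973 bp in vehicle, 1909 bp after LPC). Over all 1765 pairs, the change in Olig2 length and the change in H3K27Ac cover were unrelated in rank (Spearman's rho 0.019, Pearson's r 0.0070, a description). The median Olig2 length ratio was 0.93 (0.93 to 0.95) where cover rose and 0.94 (0.93 to 0.95) where it fell.

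H3K27Ac peaks framed the Olig2 midpoint at kept acetylated sites, with a shallow dip at the midpoint itself that lost acetylated sites also had. In vehicle, 81.4% of the sites had an H3K27Ac peak over the midpoint, and 86.1% and 87.4% had one 300 bp to the left and right. In LPC the values were 89.2% at the midpoint and 91.4% and 90.6% at 300 bp. As the mean of both sides, cover fell to 43.0% in vehicle and 48.8% in LPC at 1 kb, to 13.7% and 15.9% at 2 kb, and to 8.01% and 9.28% at 5 kb. The rule required an H3K27Ac peak on the Olig2 peak in each list, so this shape is a description. Lost acetylated sites were chosen by the same H3K27Ac rule. Cover 2 kb to the left and right of their midpoints was 13.4% and 14.2% in vehicle. In LPC it was 15.5% and 14.7%. At lost acetylated sites the midpoint was covered about as often in vehicle (82.0%, a difference of -0.63 points, -3.61 to 2.47). In LPC it was covered less often there (85.8%), and kept acetylated sites exceeded them by 3.45 points (0.87 to 6.17). The shoulders of lost acetylated sites at 300 bp left and right were 86.2% and 85.6% in vehicle and 90.1% and 88.4% in LPC.

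**Figure D3:**
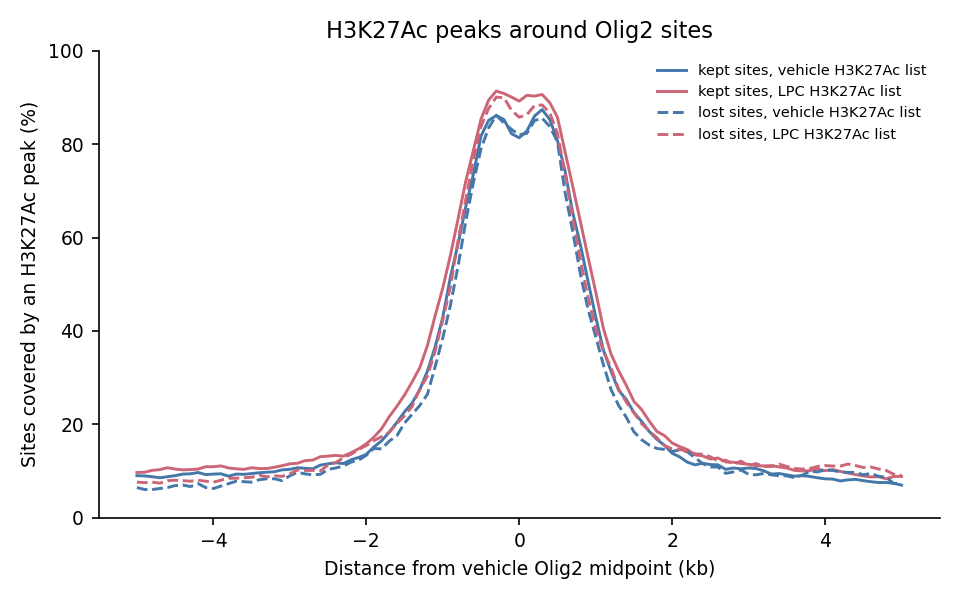
Lines give the share of sites (y axis, %) covered by an H3K27Ac peak at each distance from the vehicle Olig2 midpoint (x axis, kb, every 100 bp) for the 1772 kept and 956 lost acetylated sites in the vehicle and LPC lists. At kept sites the vehicle line dips to 81.4% at the midpoint between shoulders of 86.1% and 87.4%, and the LPC line runs above it, at 89.2% at the midpoint. The lines of lost sites dip there too, to 82.0% in vehicle and 85.8% in LPC.

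Gaps between H3K27Ac peaks at the Olig2 midpoint were fewer in LPC than in vehicle. A gap was counted when the midpoint was uncovered and had an H3K27Ac peak within 1 kb on each side. In vehicle, 193 kept acetylated sites (10.9%, 9.48 to 12.4) had such a gap, with a median width of 178 bp (quartiles 99 and 251 bp). In LPC, 92 sites (5.19%, 4.21 to 6.33) had one, with a median width of 157.5 bp. Of the 217 sites with a gap in a single list, 159 (73.3%, 66.9 to 79.0) had it in vehicle. At 147 sites a vehicle gap was covered by an LPC peak, and at 48 the reverse was seen. At the centres of the 18569 acetylated regions that held no vehicle Olig2 peak, 10.9% had a gap in vehicle and 7.75% in LPC. Kept acetylated sites therefore matched those centres in vehicle (a difference of -0.051 points, -1.49 to 1.55) and were lower in LPC by -2.56 points (-3.58 to -1.37). The rule asked for H3K27Ac on the Olig2 peak but not at those centres, so this contrast cannot be told apart from the choice of sites. Against lost acetylated sites, which had gaps in 9.94% in vehicle and 5.96% in LPC, the differences were 0.95 points (-1.52 to 3.27) and -0.77 points (-2.70 to 0.98).

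The count of H3K27Ac peaks touched by each Olig2 peak showed the same change. In vehicle 758 kept acetylated sites (42.8%) touched at least 2 H3K27Ac peaks, and in LPC 422 (23.8%) did. At 466 sites the Olig2 peak touched several H3K27Ac peaks in vehicle and 1 in LPC, at 130 the reverse, and at 884 (49.9%) it touched 1 in each list. At lost acetylated sites the shares were 40.3% with at least 2 vehicle peaks and 26.0% with at least 2 LPC peaks, and the differences of kept from lost sites were 2.50 (-1.38 to 6.35) and -2.23 points (-5.69 to 1.14). The change from several peaks to 1 was seen at 26.3% of kept and 24.1% of lost acetylated sites (2.24 points, -1.21 to 5.58). Of the 6 such comparisons with lost sites, the reverse change was the 1 whose interval left out 0 (7.34% against 9.83%, -2.50 points, -4.84 to -0.33). The vehicle H3K27Ac list as a whole had shorter peaks, with a median of 674 bp against 823 bp in LPC, and its part in the closing of gaps was not tested.

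Acetylation was present at these sites in both conditions, but its extent was seldom identical. H3K27Ac peaks covered a median of 1602 bp of the 2 kb window in vehicle (interval 1563 to 1641 bp) and 1721.5 bp in LPC (1689 to 1751 bp). The cover was larger in LPC at 1114 sites (62.9%, 60.6 to 65.1), smaller at 457 (25.8%, 23.8 to 27.9) and equal at 201 (11.3%). At 198 of the equal sites the window was full in both lists, which left 3 sites with equal but partial cover. The median change was 59 bp (47 to 69 bp). A change of at least 500 bp was seen at 162 sites upward and 37 downward, so at the other sites the lists differed by under 500 bp. At the centres of acetylated regions without Olig2, cover was larger in LPC at 71.3%, which was 8.47 points more often than at kept acetylated sites (interval of the kept minus region difference -10.8 to -6.15). There 3.42% of windows were full in vehicle, against 13.3% at kept acetylated sites. Median vehicle cover at the centres was 1120 bp. The rule did not ask for H3K27Ac at the centres, so contrasts with them cannot be told apart from the choice of sites. When H3K27Ac peaks separated by up to 1 kb were joined first, cover was larger in LPC at 841 kept acetylated sites (47.5%), smaller at 434 and equal at 497. Of the kept acetylated sites with unequal cover, LPC was larger in 70.9% as deposited and in 66.0% after joining, against 73.0% and 69.4% of the region centres. The differences were -2.09 (-4.47 to 0.20) and -3.39 points (-6.13 to -0.74), and with windows full in either list left out it was -3.995 points (-6.67 to -1.42) in the lists as deposited.

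The largest gains of H3K27Ac cover were on chromosome 10. At chr10:97431152-97432616 it rose from 613 bp to the full 2000 bp, while the Olig2 peak measured 1465 bp in vehicle and 1462 bp in LPC, with midpoints 2.5 bp apart. At chr10:17232959-17234467 cover went from 499 to 1860 bp and at chr10:11143218-11145263 from 785 to 1964 bp, and in both the Olig2 peak was shorter in LPC (1509 to 999 bp and 2046 to 978 bp). The next were chr4:136185078-136186463 (382 to 1498 bp) and chr2:22493198-22494251 (708 to 1821 bp). The largest losses were at chr16:10759123-10760441 (1564 to 366 bp), chr17:58285186-58286384 (1722 to 619 bp), chr5:51772086-51773009 (1563 to 528 bp), chr5:88986942-88988616 (1572 to 585 bp) and chr14:102044329-102045413 (1191 to 287 bp). An LPC Olig2 peak was present at these 5 sites by the choice of members, and its length was 0.82 to 1.11 times that in vehicle. Among all sites on H3K27Ac of both conditions that lost at least 500 bp of cover, 37 of 73 were kept (50.7%, 38.7 to 62.6). The chromosome 16 peak measured 1319 and 1374 bp, that on chromosome 17 measured 1199 and 1103 bp, and that on chromosome 14 measured 1085 and 1206 bp. At all 5, more than 1 vehicle H3K27Ac peak and a single LPC H3K27Ac peak touched the Olig2 peak.

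Among sites acetylated in both conditions, the Olig2 peak was kept more often where H3K27Ac cover was larger in LPC than where it was smaller. It was kept at 1114 of 1689 sites with larger cover (66.0%, 63.6 to 68.2), at 457 of 770 with smaller cover (59.4%, 55.8 to 62.8) and at 201 of 269 with equal cover (74.7%, 69.1 to 79.8). The difference between larger and smaller cover was 6.61 points (2.49 to 10.8). Leaving out windows that were full in either list gave 6.10 points (1.71 to 10.5). Within 3 equal classes of vehicle Olig2 length, from short to long, it was 9.03 (2.11 to 15.9), 3.38 (-3.42 to 10.4) and 5.52 points (-1.79 to 13.2). By vehicle H3K27Ac cover, from low to high among windows not full, it was 8.89 (1.18 to 16.7), 10.8 (3.54 to 18.1) and 1.52 points (-5.34 to 8.63). The difference had the same sign in these strata, but its interval reached below 0 in 3 of them. It also did so with H3K27Ac peaks joined within 1 kb (3.99 points, -0.40 to 8.43) and with the lists limited to longer peaks (4.02 points, -1.91 to 9.98). The contrast was chosen after its values were seen, and no replicate was at hand to set it against.

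**Figure D4:**
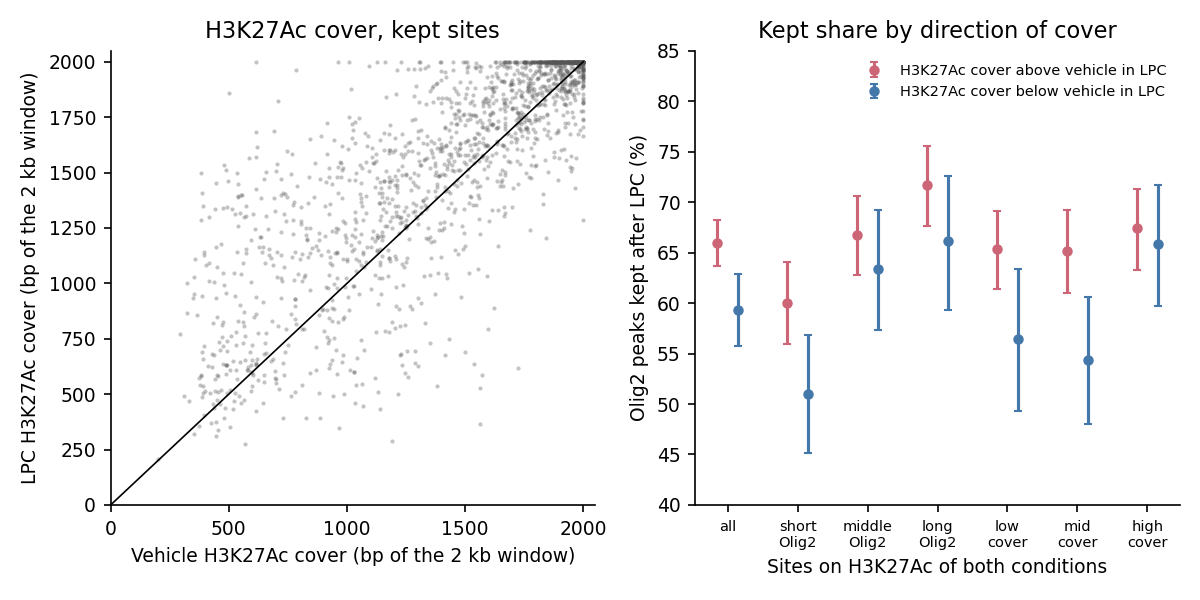
The left panel plots LPC against vehicle H3K27Ac cover, in bp of the 2 kb window around the Olig2 midpoint, for the 1772 kept acetylated sites, with the line of equality. The right panel gives the share of Olig2 peaks kept after LPC (%, exact 95% intervals, axis from 40 to 85%) among sites acetylated in both conditions with larger or smaller cover in LPC, for all sites (66.0% and 59.4%) and within classes of vehicle Olig2 length and vehicle cover.

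The kept share was also higher where vehicle H3K27Ac filled the window, but those windows held longer Olig2 peaks. Where vehicle H3K27Ac filled the window, 236 of 327 Olig2 peaks were kept (72.2%, 67.0 to 77.0), against 504 of 799 (63.1%, 59.6 to 66.4) in the class of lowest cover, a difference of 9.09 points (3.04 to 14.8). Median Olig2 length was 1545 bp in the filled windows and 1047 bp in that class. In the middle of 3 equal classes of Olig2 length, 49 of 68 were kept in filled windows (72.1%, 59.9 to 82.3) and 182 of 274 in the lowest class (66.4%, 60.5 to 72.0). In the shortest class, 18 of 35 were kept in filled windows (51.4%, 34.0 to 68.6) and 242 of 412 in the lowest class (58.7%, 53.8 to 63.5). In the longest class the shares were 75.4% (69.3 to 80.9) and 70.8% (61.5 to 79.0). Peak length itself gave a wider range, from 57.0% kept (53.7 to 60.2) in the shortest class to 71.6% (68.6 to 74.6) in the longest. Across kept acetylated sites, Olig2 length and vehicle H3K27Ac cover had a Spearman's rho of 0.47 over 1772 sites, given as a description.

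Joining the H3K27Ac peaks of both conditions within 1 kb placed the kept acetylated sites in 1738 acetylated regions, almost always 1 site to a region. Of these regions 1706 held 1 site, 30 held 2 and 2 held 3. The regions spanned a median of 2236.5 bp (interval 2136 to 2312 bp, quartiles 1558 and 3484 bp), against 1630 bp (1616 to 1643 bp) for the 18569 regions with peaks of both conditions and no vehicle Olig2 peak, a ratio of 1.37. Regions that held lost acetylated sites alone spanned a median of 2061.5 bp (1958 to 2138 bp). The share of regions with a kept acetylated site rose with span, from 3.62% below 1 kb to 6.17%, 10.5%, 19.0% and 40.8% at 1 to 2, 2 to 4, 4 to 8 and at least 8 kb. Per megabase of region, by contrast, the number was nearly level, at 49.2 sites below 1 kb and 41.4, 39.6, 38.2 and 40.3 in the wider classes. The wider regions thus held such a site more often about in proportion to their length.

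**Figure D5:**
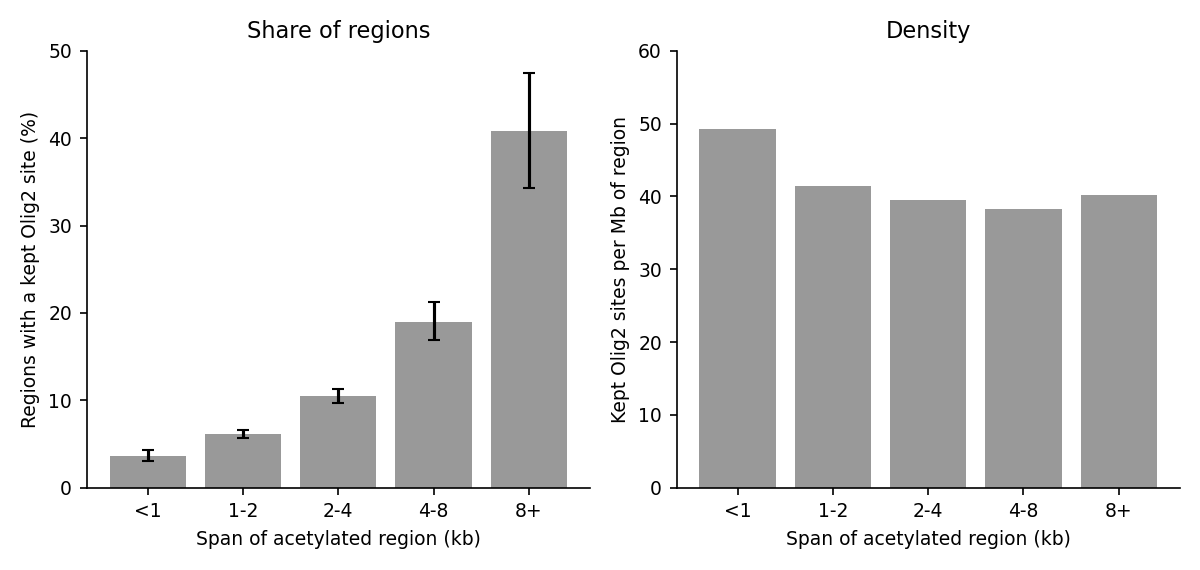
The left panel gives the share of acetylated regions with peaks of both conditions (y axis, %, exact 95% intervals) that hold a kept acetylated Olig2 site, by the span of the region in kb; the right panel gives the number of such sites per Mb of region in the same classes. The share climbs from 3.62% to 40.8% while the density lies between 38.2 and 49.2 sites per Mb.

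Olig2 midpoints lay near the middle of their acetylated regions. The rule placed H3K27Ac peaks on each Olig2 peak, so this nearness is a description. No reference placement was computed for it. The median distance from the region's centre was 207.5 bp (192 to 222 bp) for kept and 217.5 bp (195 to 241.5 bp) for lost acetylated sites. In 894 kept sites (50.5%, 48.1 to 52.8) the midpoint fell in the central 20% of the region's span, and in 212 (12.0%) it fell in the outer 20% at either end or beyond the region, with 46 of these outside it. The central share was 46.8% at lost acetylated sites, a difference of 3.69 points (-0.24 to 7.60). LPC H3K27Ac peaks covered more bases than vehicle ones in 69.5% (67.3 to 71.7) of the regions with a kept acetylated site, against 71.8% over all 21252 regions with peaks of both conditions and 64.5% (61.3 to 67.6) of those with lost acetylated sites alone. Within classes of span the difference from regions without Olig2 was negative in each class, from -1.13 points (-7.47 to 4.65) at 4 to 8 kb to -8.97 points (-20.4 to 2.55) at 8 kb and above. Its interval lay below 0 at 1 to 2 kb (-4.15 points, -8.04 to -0.48) and at 2 to 4 kb (-4.70 points, -8.52 to -1.09).

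The 2 regions that held 3 kept acetylated sites were chr11:58699658-58714880 and chr15:60362139-60369391. The chromosome 11 region spanned 15223 bp, of which vehicle H3K27Ac peaks covered 13849 bp and LPC peaks 13154 bp. Its Olig2 peaks at 58701686 to 58703829, 58707498 to 58708857 and 58710990 to 58713423 measured 2144, 1360 and 2434 bp in vehicle and 1193, 1331 and 1629 bp in LPC. The chromosome 15 region spanned 7253 bp, with 5633 bp covered in vehicle and 6479 bp in LPC. Its Olig2 peaks measured 1265, 1916 and 881 bp in vehicle and 1175, 1956 and 1018 bp in LPC. Thus all 3 sites of the first region were shorter in LPC, and 2 of the 3 in the second were longer. The widest regions with 2 kept acetylated sites were chr2:180276873-180311639 (34767 bp), chr17:36974883-36993940 (19058 bp) and chr13:51062862-51080065 (17204 bp). In each of these, LPC H3K27Ac peaks covered more bases than vehicle ones (31917 against 29591, 16475 against 14155 and 14428 against 11732 bp). No lost acetylated site lay in any of these 5 regions. Sites in 1 region could differ in outcome. Of 70 regions with at least 2 Olig2 sites acetylated in both conditions, 28 had all of them kept. In 34 of the regions kept and lost sites lay side by side, and in 8 all sites were lost. Of the 146 sites in the 70 regions, 96 (65.8%) were kept, close to the 65.0% over all such sites. Whether sites in 1 region shared their outcome more often than unrelated sites was not tested.

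Kept acetylated sites lay closer to other Olig2 peaks than kept sites without H3K27Ac did. The median distance to the nearest vehicle Olig2 peak was 75.5 kb (68.7 to 81.8 kb), against 145.0 kb (130.3 to 159.4 kb), and 87.7 kb (76.7 to 96.4 kb) at lost acetylated sites. A neighbour within 10 kb was found at 260 kept acetylated sites (14.7%), at 14.6% of lost acetylated sites and at 6.33% of kept sites without H3K27Ac, a difference from the last of 8.34 points (6.11 to 10.5). At 218 of those 260 sites (83.8%, 78.8 to 88.1) the neighbour was itself on H3K27Ac of both conditions. The same held at 112 of 140 lost acetylated sites with a neighbour within 10 kb. The difference of kept from lost acetylated sites was 3.85 points (-3.77 to 12.2), an interval that included 0. Among kept sites without H3K27Ac it held at 28 of 70. The nearest neighbour of a kept acetylated site was kept in 66.3% (64.1 to 68.5), and that of a lost acetylated site in 62.4% (59.3 to 65.5), a difference of 3.86 points (0.11 to 7.65). Neighbouring sites can count for each other, so the interval is too narrow. The share kept over all vehicle Olig2 peaks, 64.0%, lay between these shares. Within 10 kb the shares were 67.7% of 260 and 60.7% of 140 (6.98 points, -2.73 to 16.9), and beyond 100 kb 67.4% and 63.5% (3.84 points, -1.72 to 9.48). The nearest neighbours of kept sites without H3K27Ac were kept in 67.2%.

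Kept acetylated sites lay on all 20 autosomes and on X. Among autosomes, their share of the vehicle Olig2 peaks ran from 27.9% (22.0 to 34.4) on chromosome 17, with 60 of 215, to 44.4% (36.2 to 53.0) on chromosome 16, with 64 of 144. On X, 10 of 47 vehicle Olig2 peaks were kept acetylated sites (21.3%, 10.7 to 35.7), against 35.7% over all vehicle Olig2 peaks. Of acetylated regions with peaks of both conditions, 10 of 443 on X (2.26%) held such a site, against 1738 of 21252 over all chromosomes. On the autosomes this share ran from 6.64% on chromosome 10 to 11.5% on chromosome 18.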

How the data were processed

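Per the submitters' processing notes, the authors used MACS 1.4.2 and the rat build rn4. The deposited lists hold peak positions in base pairs and no other measurement. The sources used here do not state the control library, the threshold, the aligner or the depth. Overlaps were computed in Python 3.11.15 with SciPy 1.17.1, pandas 2.3.3 and numpy 2.4.6. Counts were checked against bedtools 2.31.1 (a difference of 0 peaks), and the code was tested on simulated lists. Shares carry exact (Clopper-Pearson) intervals, their differences Newcombe intervals, and medians order-statistic intervals. All treat sites as independent. Cover is the number of bases under H3K27Ac peaks within 1 kb of the vehicle Olig2 midpoint. Regions join H3K27Ac peaks of both conditions at most 1 kb apart. Coordinates are 1-based. Named sites followed a rule: the 10 longest, the 5 highest and 5 lowest length ratios, the 5 largest gains and losses of cover, the 5 regions with most sites, and the sites nearest the limits. The class of sites, the rules and the comparisons were chosen with earlier results of these data known. Splits by length or cover, the comparison of kept shares by change of cover, and the centres of regions without Olig2 were added after values had been seen. Gene lists and motifs planned for an rn4 annotation were not used here.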

Additional observations from a re-analysis of the deposited data

How the results depend on the processing

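The alternative settings, most of them applied to several results, gave 45 recomputed values in all. Of these values, 35 stayed within the interval of the reported value and 10 did not. A change of sign was looked for only in differences whose reported interval left out 0, and none was seen there. Shares, distances and ratios were outside this check, so a share that crossed 50% was not counted as a change of sign. Within classes of Olig2 length, added after seeing the data, the kept-share difference did turn negative (-4.71 to -1.23 points, intervals including 0). Requiring 50% of the Olig2 peak on H3K27Ac in each condition left 30.6% of vehicle Olig2 peaks as kept acetylated sites and gave a region span ratio of 1.49. Keeping the longer peaks of each list (median length or more) gave a kept-share difference of 13.5 points, a length difference between kept and lost acetylated sites of 151.5 bp (124 bp as reported), larger LPC cover at 57.6% and a span ratio of 1.44. H3K27Ac peaks joined within 1 kb gave larger LPC cover at 47.5% of kept acetylated sites, against 62.9% as reported. The same joining gave a difference in gaps of 0 points, because it removes gaps of this size by construction. A window of 2 kb either side gave larger LPC cover at 68.8%, and a joining distance of 3 kb a span ratio of 1.44. Otherwise the cause was not tested. The reciprocal 50% overlap between Olig2 peaks, autosomes alone and, added after seeing the data, gap flanks within 500 bp kept every value they were applied to within its interval. No paired analysis was possible because each group has 1 library, and no replicate could be left out. Depth is unknown, so a missing peak may lie just below a list's threshold.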

Other observations

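The kept acetylated site with the smallest Olig2 overlap, chr11:58693469-58695085, lay 4572 bp from the chromosome 11 region with 3 such sites. Its LPC partner spanned chr11:58691851-58693473 and shared 5 bp with it, so the midpoints lay 1615 bp apart. The LPC peak also overlapped another vehicle Olig2 peak, and the site is one of the 4 that shared an LPC peak.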
